A study of Mus musculus with 6 samples.

Results

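Chemokines are small secreted proteins that guide the movement of leukocytes, and they act through membrane receptors that couple to inhibitory G proteins. The genes described here are the chemokine ligands (Ccl, Cxcl and Xcl followed by a number, with or without a letter, and Cx3cl1) and the receptors (Ccr, Cxcr and Ackr followed by a number, Xcr1, Cx3cr1 and Ccrl2) of mouse T helper 9 (Th9) cells. They were chosen by symbol and came to 62 of the 23183 symbols in the files, 39 ligands and 23 receptors. Of the receptors, 18 are conventional and 5, Ackr1 to Ackr4 and Ccrl2, belong to the atypical receptors, which bind ligands without coupling to G proteins in the usual way.

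RNA was sequenced from wild-type C57BL/6N naive CD4+ T cells of the spleen, cultured for 3 days under Th9 conditions in 2 groups of 3 libraries. All cultures received plate-bound anti-CD3e (1 µg/ml), soluble anti-CD28 (1 µg/ml) and, as polarizing agents, anti-IFN-gamma at 10 µg/ml with the cytokines TGF-beta1 at 2 ng/ml and IL-4 at 10 ng/ml. The SPC group also had sphingosylphosphorylcholine (SPC, d18:1, 30 µM), a bioactive lysosphingolipid. The control group had no SPC, and the sources used here give neither its vehicle nor the age and sex of the mice. The 3 libraries of each group come from 3 independent experiments. Libraries of equal number were treated as pairs, although the sample titles do not say that equal numbers share an experiment. P-values measure the spread between these libraries only.

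In T cells, chemokine receptors mark where a cell can go and chemokines mark which cells it can call. Ccr7 and Cxcr4 serve homing to and positioning in lymphoid organs. Ccr4 and Ccr8 are typical of type 2 helper cells and cells that home to skin, Ccr6 of Th17 cells, Cxcr3 of Th1 cells and Cxcr5 of follicular helper cells.

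The 62 genes took 0.0673% to 0.0724% of the counts of a library, whose totals ranged from 22002050 to 33049997. Cd4 had 9548 to 15906 counts, Cd8a 1 to 6 and Cd8b1 41 to 61 in the 6 libraries. Il9 had 11474 to 16336 counts in control and 26649 to 32496 with SPC. The defining markers of CD4 T cells and of the Th9 type were thus present. In all, 20 of the 62 genes passed the filter on low counts, 10 receptors and 10 ligands, and of the 62 these 20 alone were tested. Another 18 had no count in any library, and the remaining 24 had at most 19 counts in a library. A count of 0 allows a level of up to 0.0911 to 0.136 CPM (counts scaled to a common effective library size), depending on the library, which covers counting error only. In bulk RNA, fewer cells that express a gene and less of its RNA per cell cannot be told apart.

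SPC cultures had less Ccr8 RNA and, in the test that pairs libraries by number, more RNA of 6 ligands. Ccr8 fell 1.42-fold and was the 1 member of 20 called by edgeR at an adjusted p under 0.05 without the replicate number as a block, where 0.483% of all 12226 tested genes were called (0.327% higher, 0.155% lower). No ligand was called in that fit, while 5 of 10 ligands and 3 of 10 receptors had an unadjusted p under 0.05, beside 10.2% of all tested genes. With that block, 11 of the 20 were called, beside 7.08% of all tested genes (4.02% higher, 3.07% lower). These were the receptors Ccr8 and Cxcr4, both lower with SPC, the receptors Ccr6, Ccr7 and Ccrl2, all higher, and the ligands Ccl1, Ccl5, Ccl17, Ccl20, Ccl22 and Cx3cl1, all higher. For the 10 tested ligands the median log2 fold change was 0.91, for the 10 tested receptors -0.09, and for all tested genes 0.00193. Of the ligands counted here, Ccl5 passed the filter on low counts through its SPC libraries, which favours a higher value with SPC.

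The promoters of the genes called with the block are shown for those whose window held a match to the kappaB consensus, the element that NF-kappaB binds, and for Ccr8, the member called in both fits. The sequences are from RefSeq (GRCm38.p6) and give the 250 bases before the start of transcription, 5′ to 3′ on the strand of the gene, with kappaB matches in capitals. Ccr6 and Ccrl2 have more than 1 start in that table, and the start whose window holds the match is shown.
Ccl20 (chr1:83116516-83116765, plus strand): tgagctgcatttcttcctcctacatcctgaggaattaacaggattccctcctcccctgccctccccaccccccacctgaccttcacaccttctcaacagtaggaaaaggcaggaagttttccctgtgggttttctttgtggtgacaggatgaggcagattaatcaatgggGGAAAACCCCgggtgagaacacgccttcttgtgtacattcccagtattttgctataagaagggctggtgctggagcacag
Ccl1 (chr11:82179813-82180062, minus strand): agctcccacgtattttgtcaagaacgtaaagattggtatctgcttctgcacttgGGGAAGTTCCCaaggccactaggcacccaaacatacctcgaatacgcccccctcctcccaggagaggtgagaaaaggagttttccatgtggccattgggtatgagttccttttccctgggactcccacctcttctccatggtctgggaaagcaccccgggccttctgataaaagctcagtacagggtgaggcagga
Ccr6 (chr17:8242276-8242525, plus strand): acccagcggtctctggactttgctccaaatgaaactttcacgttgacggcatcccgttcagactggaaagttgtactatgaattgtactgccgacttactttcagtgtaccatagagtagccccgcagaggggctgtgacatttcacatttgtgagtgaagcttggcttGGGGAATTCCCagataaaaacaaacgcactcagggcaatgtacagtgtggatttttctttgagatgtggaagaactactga
Ccrl2 (chr9:111057519-111057768, minus strand): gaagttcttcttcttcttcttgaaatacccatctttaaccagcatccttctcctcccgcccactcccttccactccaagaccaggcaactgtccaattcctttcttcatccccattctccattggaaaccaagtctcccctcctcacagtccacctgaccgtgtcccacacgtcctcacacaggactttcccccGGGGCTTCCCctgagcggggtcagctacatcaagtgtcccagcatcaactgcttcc
Ccr8 (chr9:120091883-120092132, plus strand): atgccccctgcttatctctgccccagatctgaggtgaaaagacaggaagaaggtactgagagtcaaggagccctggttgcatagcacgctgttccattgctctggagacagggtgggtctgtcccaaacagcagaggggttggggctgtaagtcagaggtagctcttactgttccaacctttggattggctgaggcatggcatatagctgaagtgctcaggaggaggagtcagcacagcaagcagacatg
The table held a promoter for 16 of the 20 tested members. The 10-base kappaB consensus, searched on both strands, matched 4 of these 16 genes, and 8.23% of the 27025 genes in the table. Matches on both strands overlap in Ccl1, Ccr6 and Ccrl2. In Ccl20 it spans positions -80 to -71 before the start, in Ccl1 -196 to -186, in Ccr6 -81 to -71 and in Ccrl2 -56 to -47. The 4 genes with a match were all called higher with SPC in the blocked test. Ccl17, Ccl22 and Cx3cl1, also called higher, had no match, and Ccl5 and Ccr7 had no entry in the table. Of other motifs, AP-1 (TGANTCA) matched Ccl27a and Ccr4 (7.82% of all genes), the STAT6 motif (TTC and GAA with 4 bases of any kind between them) Ccl17 (6.76%) and the GATA motif (AGATAA) Ccl17, Ccl27a, Ccr6, Ccr8 and Ccrl2 (11.4%). The IRF motif (GAAA and GAAA with 2 bases of any kind between them, 3.46% of all genes) and the cAMP response element (TGACGTCA, 1.77%) matched none of the 16. Of the 5 genes with a GATA match, Ccl17, Ccr6 and Ccrl2 were called higher in the blocked test, Ccr8 was called lower and Ccl27a was not called. Neither gene with an AP-1 match was called. A link between any motif and the calls was not tested. The letters alone do not show that a factor binds there.

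Among the receptors, 3 genes took nearly all reads, a measure that also reflects gene length. Ccr4, Ccr8 and Ccr7 together took 92.0% to 94.2% of the summed receptor CPM in each library. That sum was 644.6 ± 15.4 CPM in control and 645.4 ± 11.3 CPM with SPC (SD, n = 3 each). Per length of annotated exons, Ccr4 and Ccr8 were equal in control (117 ± 5.86 and 117 ± 4.19 CPM per kb, SD, n = 3) and their libraries overlapped. With SPC they stood at 123 and 82.6 CPM per kb. Ccr7 followed with 53.0 ± 12.1 CPM per kb in control, below both in every library. Cxcr4 (8.45 ± 3.81) and Ccr6 (8.36 ± 1.05 CPM per kb) overlapped each other and lay below Ccr7. The mean levels of Cxcr2, Ccrl2, Cxcr6, Cxcr3 and Cxcr5 in control lay between 0.105 and 0.615 CPM per kb.

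**Figure D1:**
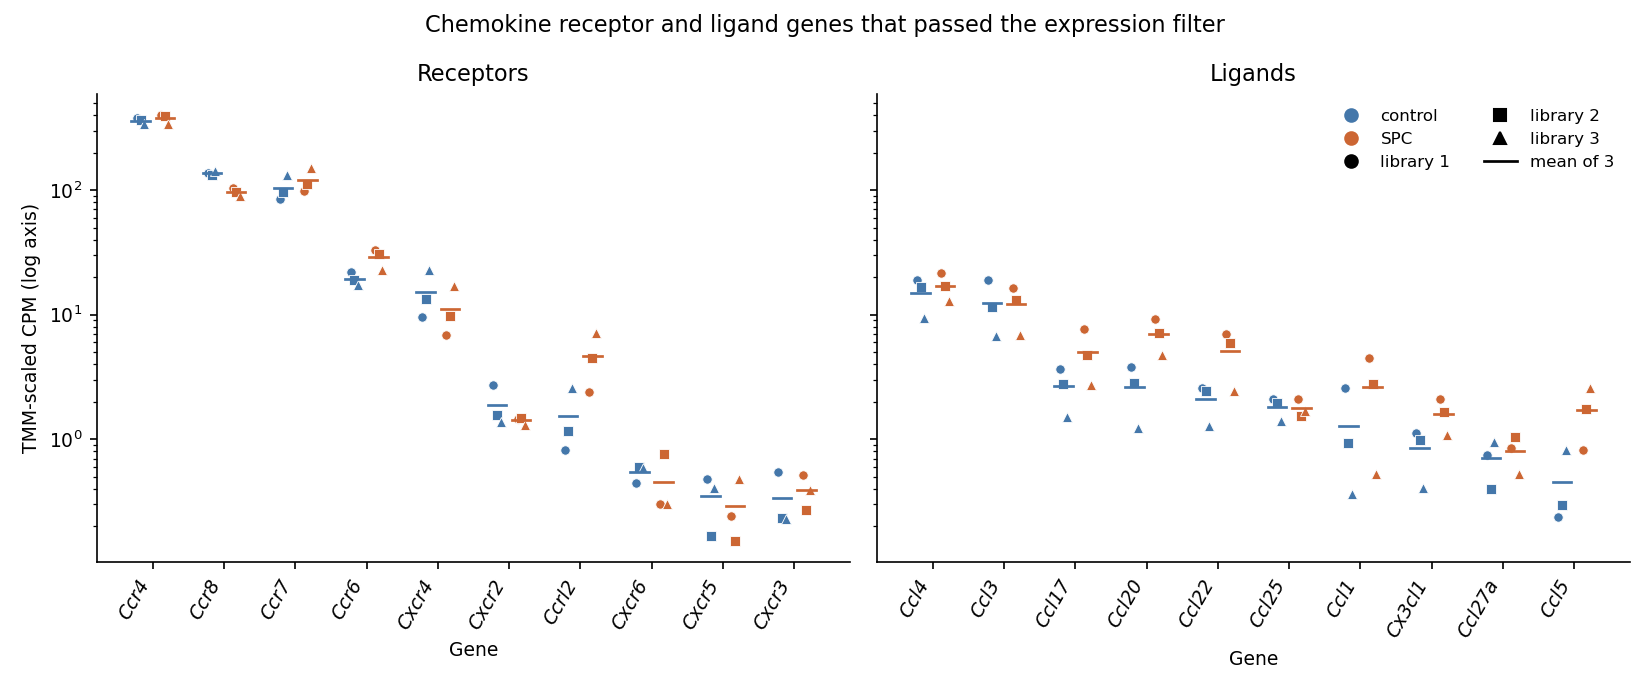
TMM-scaled CPM of the 20 tested genes in each of the 6 libraries, on a log axis, with receptors left and ligands right. Points are libraries (marker by library number), lines are means of 3. The lowest library among Ccr4, Ccr8 and Ccr7 is at 85.6 CPM (Ccr7), and the highest ligand library, of Ccl4, at 21.7 CPM.

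Ccr8, the receptor for Ccl1, held 137, 133 and 143 CPM in control libraries 1, 2 and 3 and 104, 96.5 and 90.3 CPM in the SPC libraries. Every SPC library was below every control library. On the log2 scale the difference was -0.50 ± 0.08 (SE, edgeR adjusted p = 0.0373, and 0.00088 with the block). Its direction held in all 3 same-numbered pairs, with ratios of SPC to control of 0.763, 0.726 and 0.633. The call without the block was kept when SPC library 1 was left out (adjusted p = 0.0285). It was lost without control library 1, 2 or 3 (0.103, 0.199 and 0.103) and without SPC library 2 or 3 (0.183 and 0.0716), with a log2 fold change between -0.56 and -0.45 in these fits. It was also lost without both libraries of any 1 number (edgeR adjusted p between 0.0661 and 0.762, log2 fold change between -0.56 and -0.43). The blocked call was kept in all 3 such fits (adjusted p at most 0.00283). Ccr8 lies on chromosome 9 (120092114 to 120094906, plus strand, mm10).

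Ccr4, the receptor for Ccl17 and Ccl22 and a frequent partner of Ccr8 on type 2 cells, held 377, 368 and 342 CPM in control and 403, 393 and 341 CPM with SPC. The groups overlapped, and the log2 fold change was 0.07 ± 0.08 (edgeR adjusted p = 0.865, and 0.507 with the block). The ratio of SPC to control was 1.07, 1.07 and 0.997 in the 3 pairs.

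Ccr6, the receptor for Ccl20, held 22.1, 18.9 and 17.3 CPM in control and 33.4, 30.9 and 22.9 CPM with SPC. The lowest SPC library was above the highest control library by a small margin. Its log2 fold change of 0.58 ± 0.15 was not called without the block (edgeR adjusted p = 0.171). With the block Ccr6 was called higher (adjusted p = 0.00175). The pairs gave ratios of 1.51, 1.64 and 1.32. Ccr6 lies on chromosome 17 (8236043 to 8257141, plus strand, mm10).

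The lymphoid homing receptors were called in opposite directions with the block, and neither was called without it. Ccr7, which binds Ccl19 and Ccl21, held 85.6, 97.1 and 132 CPM in control and 99.2, 112 and 151 CPM with SPC. Its groups overlapped widely, while the ratios within pairs were 1.16, 1.15 and 1.14. The log2 fold change of 0.20 ± 0.19 was not called without the block (edgeR adjusted p = 0.804) and was called with it (0.20 ± 0.05, adjusted p = 0.0376). The blocked call of Ccr7 was lost without the libraries numbered 2 or 3. Ccr7 lies on chromosome 11 (99144196 to 99155077, minus strand) and Ccr4 on chromosome 9 (114490316 to 114504916, minus strand).

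Cxcr4, the receptor for Cxcl12, held 9.54, 13.4 and 22.9 CPM in control and 6.83, 9.69 and 16.9 CPM with SPC. The groups overlapped here too, and each SPC library lay below its control partner, with ratios of 0.716, 0.723 and 0.740. The log2 fold change was -0.46 ± 0.37 without the block (edgeR adjusted p = 0.769) and -0.46 ± 0.09 with it (adjusted p = 0.0102). In both genes the libraries numbered 3 were the highest of their group and those numbered 1 the lowest. Cxcr4 lies on chromosome 1 (128588199 to 128592293, minus strand).

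Ccrl2, an atypical receptor that presents the chemoattractant chemerin, held 0.821, 1.16 and 2.59 CPM in control and 2.40, 4.52 and 7.08 CPM with SPC, from 24 to 57 and 79 to 163 counts. Control library 3 was slightly above SPC library 1, so the groups overlapped, but every pair was higher with SPC (ratios of 2.92, 3.89 and 2.73). The log2 fold change was 1.64 ± 0.48 (edgeR adjusted p = 0.237, with the block 0.000465). Ccrl2 lies on chromosome 9 (111054486 to 111057519, minus strand).

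The receptors typical of Th1, follicular and tissue-resident cells and of neutrophils had few counts. Cxcr3 (5 to 17 counts), Cxcr5 (4 to 14) and Cxcr6, the receptor for Cxcl16 (7 to 20), had log2 fold changes of 0.22 ± 0.47, -0.29 ± 0.55 and -0.25 ± 0.43 (edgeR adjusted p between 0.909 and 0.931). Cxcr2, the main neutrophil receptor, held 2.70, 1.56 and 1.36 CPM in control and 1.46, 1.49 and 1.30 CPM with SPC. It had a log2 fold change of -0.41 ± 0.29 (edgeR adjusted p = 0.722), and control library 1 stood above the other 5 libraries. None of these 4 was called with the block (edgeR adjusted p between 0.378 and 0.827). In all, 6.77% of the 50-base windows of the longest Cxcr2 transcript also occur in transcripts of other genes, and 3.3% of the exonic bases of Cxcr5 lie in an exon of Bcl9l on the opposite strand. The strand setting of the counting is unknown here.

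Of the 13 receptors that did not pass the filter, Ackr1 had no count. Cx3cr1, the receptor for Cx3cl1, had 9, 7 and 3 counts in control and 19, 15 and 6 with SPC. Xcr1, the receptor for Xcl1, had 1 count in each control library and 9, 2 and 0 with SPC. Ccr1, a receptor for Ccl3, had 0 to 2 counts. Ccr2, Ccr3, Ccr9, Ccr10, Cxcr1 and Ackr2 to Ackr4 had at most 7 counts in a library.

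**Figure D2:**
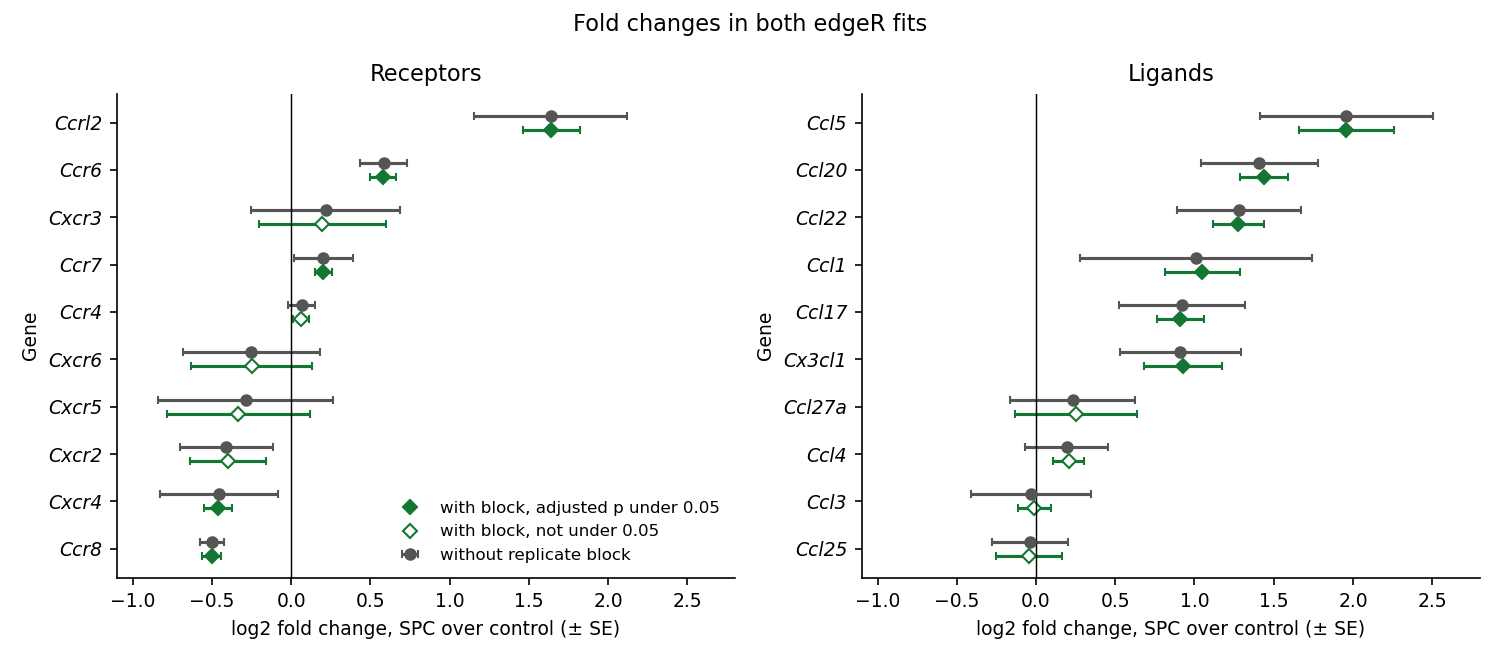
Log2 fold changes of SPC over control (± SE) for the tested receptors and ligands, from edgeR without the replicate block (circles) and with it (diamonds, filled where the adjusted p was under 0.05). The estimates nearly coincide, and the SE of most genes is smaller with the block.

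The summed CPM of all ligands was 40.9 ± 15.6 in control and 56.2 ± 18.4 with SPC (SD, n = 3 each). The groups overlapped, and the sum was higher with SPC in each same-numbered pair (56.2 against 73.8, 41.4 against 57.9 and 25.0 against 37.0 CPM for control and SPC). Ccl3 and Ccl4, inflammatory chemokines that activated T cells secrete, took 64.4% to 67.9% of it in control and 51.5% to 53.2% with SPC. Per length, Ccl4 (22.7 ± 7.55 CPM per kb in control) and Ccl3 (16.2 ± 8.0) led and overlapped each other. Ccl17 (5.18 ± 2.14) stood below them and above Ccl20 (1.84 ± 0.91 CPM per kb). The remaining tested ligands lay between 0.215 and 0.902 CPM per kb, each overlapping its neighbour in that order. The annotated exons these levels were divided by sum to 7445 bases in Ccl25 and to 514 bases in Ccl17. In Ccl1 they sum to 2369 bases. GENCODE extends that gene to 82305690 and RefSeq to 82179812, so its level per kb and its place in the order depend on the annotation.

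Ccl3 held 18.9, 11.4 and 6.77 CPM in control and 16.3, 13.1 and 6.87 CPM with SPC (log2 fold change -0.03 ± 0.38, edgeR adjusted p = 0.990, with the block 0.967). Ccl4 held 18.9, 16.7 and 9.36 CPM in control and 21.7, 17 and 12.8 CPM with SPC (0.19 ± 0.26, edgeR adjusted p = 0.876, with the block 0.248), with ratios of 1.15, 1.02 and 1.37 in the pairs. Both were high in the libraries numbered 1 and low in those numbered 3, whether SPC was given or not. Neither was called in either fit, and the sign of Ccl3 turned when a library was left out.

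Ccl5, an inflammatory chemokine in the same cluster on chromosome 11 as Ccl3 and Ccl4, held 0.239, 0.299 and 0.818 CPM in control and 0.820, 1.76 and 2.56 CPM with SPC, from 7 to 18 and 27 to 59 counts. Ccl5 passed the filter on low counts through its SPC libraries, which favours a higher value with SPC. The groups met without crossing, and the pairs gave ratios of 3.43, 5.90 and 3.13. Its log2 fold change was 1.96 ± 0.55 (edgeR adjusted p = 0.206, with the block 0.00287), and 2.62 when control library 3 was left out. Ccl5 is at 83525778 to 83530518 (minus strand), Ccl3 at 83647844 to 83649355 (minus strand) and Ccl4 at 83662584 to 83664683 (plus strand).

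Ccl20, the ligand of Ccr6, held 3.80, 2.82 and 1.23 CPM in control and 9.23, 7.12 and 4.74 CPM with SPC. All SPC libraries were above all control libraries. Its log2 fold change was 1.41 ± 0.37 (edgeR adjusted p = 0.172, with the block 0.00039), a 2.66-fold difference, and the pairs gave ratios of 2.43, 2.53 and 3.86. Ccl20 lies on chromosome 1 (83116766 to 83119167, plus strand). Ligand and receptor were both called higher in the blocked test.

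Ccl22 and Ccl17 are the ligands of Ccr4. Ccl22 held 2.57, 2.45 and 1.27 CPM in control and 7.02, 5.93 and 2.43 CPM with SPC, and Ccl17 held 3.69, 2.79 and 1.5 CPM in control and 7.65, 4.75 and 2.74 CPM with SPC. In both genes SPC library 3 fell within the control range, and all 3 pairs were higher with SPC. Their log2 fold changes were 1.28 ± 0.39 and 0.92 ± 0.40 (edgeR adjusted p = 0.253 and 0.478, with the block 0.000985 and 0.00418). Cx3cl1, a membrane-bound chemokine, held 1.13, 0.995 and 0.409 CPM in control and 2.10, 1.65 and 1.09 CPM with SPC (0.91 ± 0.38, edgeR adjusted p = 0.460, with the block 0.0478). Its blocked call was lost when the libraries of any 1 number were left out (adjusted p between 0.0509 and 0.128).

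These 3 genes are neighbours on chromosome 8, where Ccl22, Cx3cl1 and Ccl17 span 66.4 kb (94745590 to 94812036, mm10) with no other tested gene between them. Within 100 kb on either side, 7 other genes were tested, among them Arl2bp, Ciapin1 and Coq9. Their log2 fold changes lay between -0.03 and 0.12, and none was called in either fit, by DESeq2, or at an unadjusted p under 0.05. In the cluster on chromosome 11, the 2 tested neighbours within 100 kb of Ccl5, Ccl3 and Ccl4, Taf15 and Heatr6, had log2 fold changes of 0.04 ± 0.07 and -0.06 ± 0.08.

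**Figure D3:**
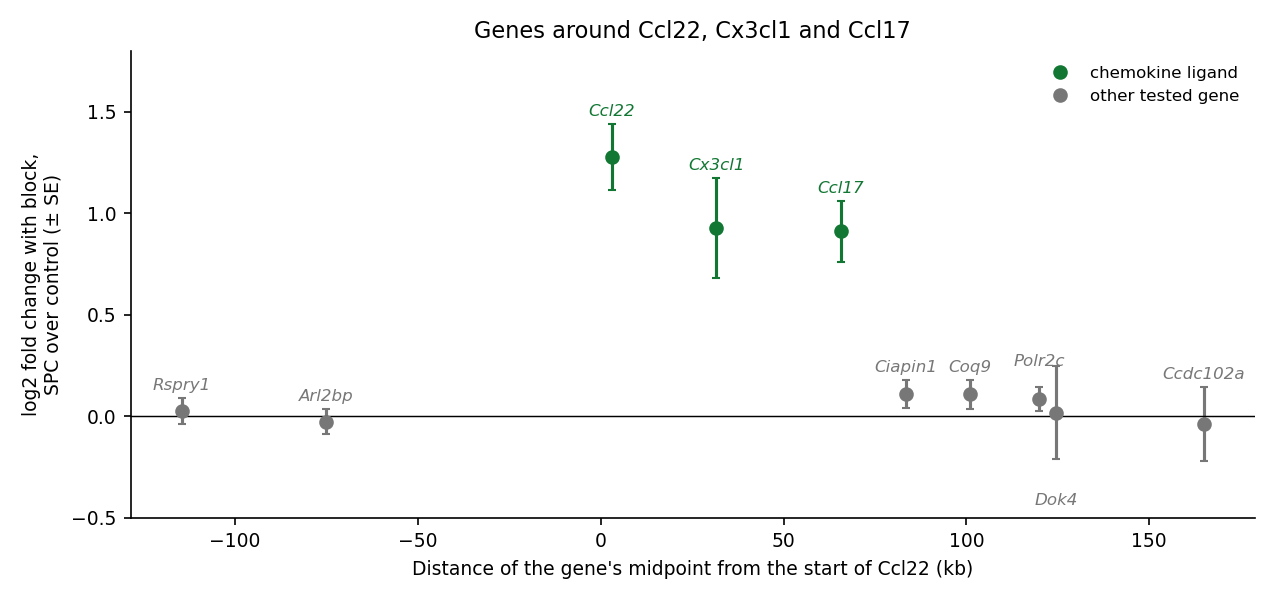
Log2 fold change with the replicate block (± SE) against the distance in kb of the midpoint of each tested gene from the start of Ccl22. Ccl22, Cx3cl1 and Ccl17 lie between 0.91 and 1.28, and the 7 other tested genes between -0.04 and 0.11.

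Ccl1, the ligand of Ccr8, held 2.57, 0.929 and 0.364 CPM in control and 4.5, 2.79 and 0.521 CPM with SPC. The groups overlapped, and the libraries numbered 3 had 8 and 12 counts. The log2 fold change was 1.01 ± 0.73 without the block (edgeR adjusted p = 0.728) and 1.05 ± 0.24 with it (adjusted p = 0.0234). The estimate without the block was 0.35 when SPC library 1 was left out and 1.99 when control library 1 was. The blocked call was lost without the libraries numbered 2 (adjusted p = 0.132). RefSeq places Ccl1 on chromosome 11 (82176666 to 82179812, minus strand, GRCm38.p6). In the blocked test the receptor Ccr8 was lower and its ligand higher.

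Ccl25, the ligand of the gut-homing receptor Ccr9, held 1.41 to 2.09 CPM in control and 1.53 to 2.10 CPM with SPC (log2 fold change -0.04 ± 0.24, edgeR adjusted p = 0.978). Ccl27a, a skin chemokine, held 0.398 to 0.955 and 0.521 to 1.03 CPM (0.23 ± 0.39, edgeR adjusted p = 0.907). Neither was called with the block. For Ccl27a, 69.2% of the 50-base windows of its longest transcript also occur in transcripts of other genes, so its counts are uncertain, and 2.74% of the exonic bases of Ccl25 lie in an exon of Elavl1 on the opposite strand.

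Of the 29 ligands that did not pass the filter, 17 had no count in any library. They include Ccl2, Ccl11, Ccl19, Ccl21a, Ccl21b, Ccl21c, Cxcl1 and Cxcl5, so the ligands of Ccr7 had no counts beside an abundant receptor. Sequence shared with other genes was not examined for untested ligands. How the counting treated reads that match several genes is unknown here. Cxcl12, the ligand of Cxcr4, had at most 1 count. Cxcl2 had 1, 1 and 5 counts in control and 13, 12 and 5 with SPC. Xcl1 had 2 to 11 counts and Cxcl16 6 to 15 over the 6 libraries. The Cxcr3 ligands Cxcl9, Cxcl10 and Cxcl11 had at most 4 counts in a library.

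**Figure D4:**
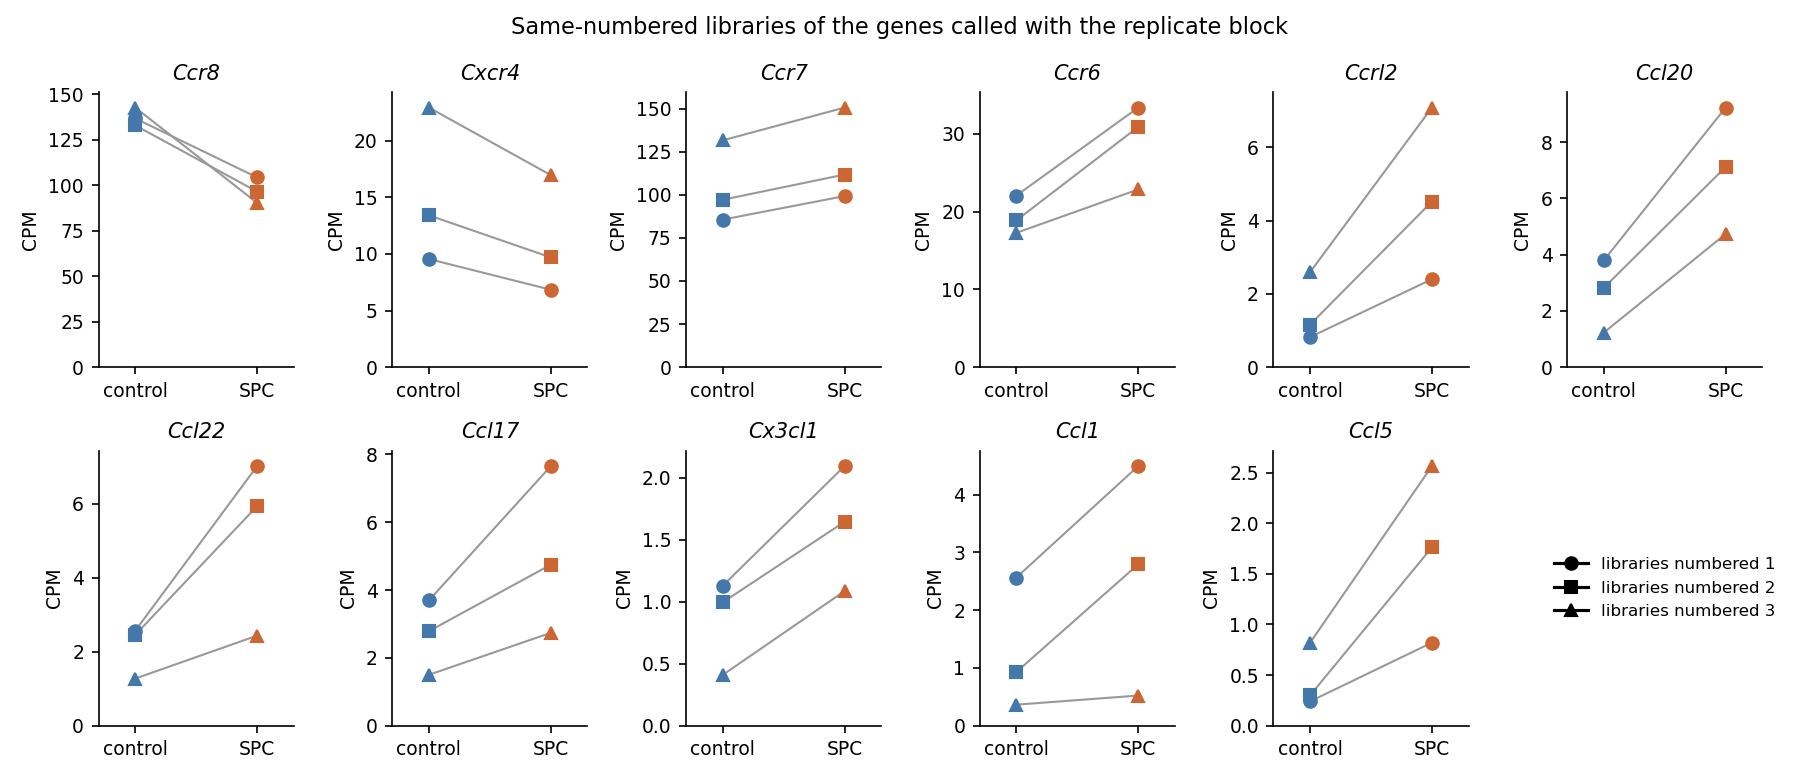
CPM of the 11 genes called with the replicate block, from control to SPC, with a line for each pair of same-numbered libraries and the CPM axis starting at 0. All 3 lines fall for Ccr8 and Cxcr4 and climb for the other 9 genes.

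Levels also differed between libraries of different number. In 14 of the 20 genes the library number took more of the variance of log2 CPM than the treatment did (70%, beside 72.6% of all tested genes). The number has more levels than the treatment, so it would take the larger share in most genes without any effect. That count therefore does not show a difference between numbers. For Ccl3 the library number took 97.8%, for Ccr7 86.4%, for Cxcr4 84.0% and for Ccr8 1.84%. In Ccr8 the treatment took 93.4%. In 7 ligands (Ccl1, Ccl3, Ccl4, Ccl17, Ccl20, Ccl22 and Cx3cl1) and in Ccr4 and Ccr6 the libraries numbered 1 were the highest and those numbered 3 the lowest of both groups. In Ccl5, Ccr7, Cxcr4 and Ccrl2 it was the other way round. The sources used here do not say what differed between libraries of different number.

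**Figure D5:**
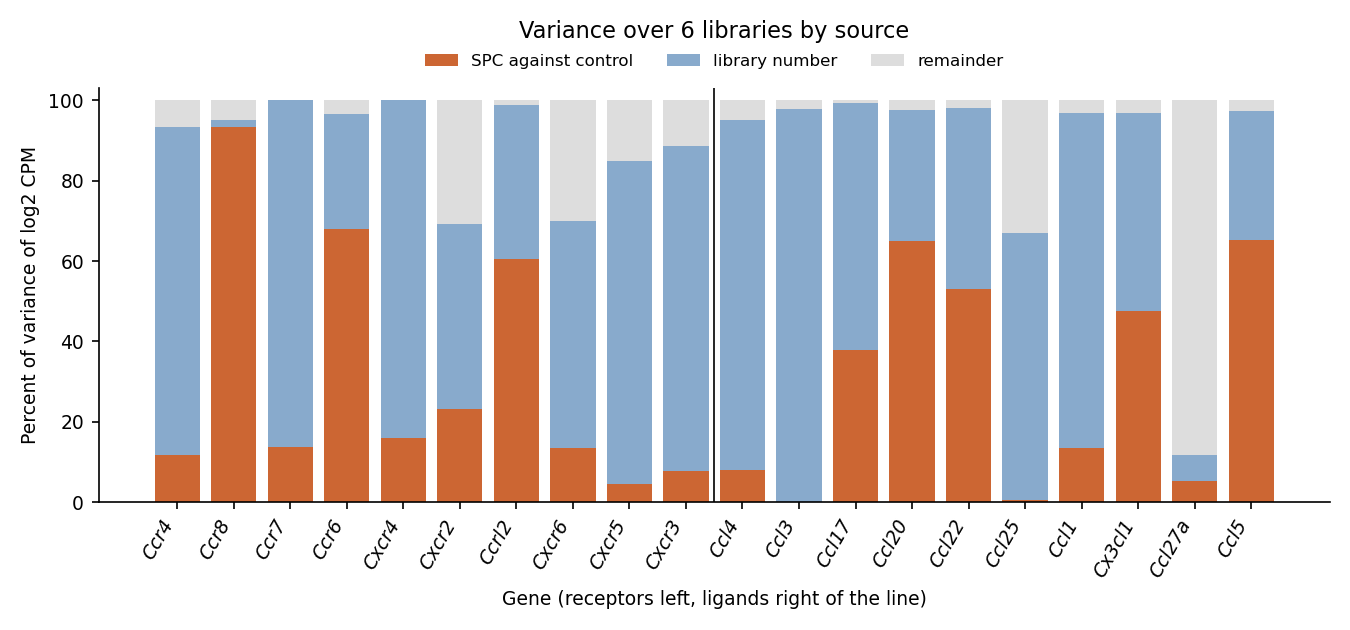
Share of the variance of log2 CPM over the 6 libraries taken by the treatment, by the library number and by the remainder, for the 20 tested genes. The treatment share is 93.4% in Ccr8 and at most 68.0% (Ccr6) in the others.

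Without regard to the number, 4 of the 20 genes had groups that did not overlap (Ccl5, Ccl20 and Ccr6 higher, Ccr8 lower), beside 16.5% of all tested genes (8.67% higher, 7.8% lower). Ccl5 was among the tested genes through its SPC libraries, which favours a higher value with SPC. DESeq2, also without the block, called 6 members (Ccr8 lower and Ccl5, Ccl20, Ccl22, Ccr6 and Ccrl2 higher), beside 2.16% of all genes to which it gave an adjusted p (1.39% higher, 0.776% lower).

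Myeloid cells also make Ccl17, Ccl22 and Ccl5, so their markers were read in the same libraries. Of 8 dendritic cell markers, Clec9a and Cd209a had no count, Itgax had 0 to 2, Siglech 0 to 1 and Xcr1 0 to 9. The summed level of the list was 59.1 to 70.8 CPM in control and 58.5 to 77.3 CPM with SPC, nearly all of it Batf3 (1399 to 2147 counts), which activated T cells also express. Zbtb46 (65 to 133 counts) was the 1 member of the list called with the block, higher with SPC. Of 8 macrophage and monocyte markers Mrc1 and Fcgr1 had no count, Lyz2 and Cd14 at most 1 and Csf1r 0 to 9. Adgre1 (12 to 21 counts in control, 4 to 6 with SPC) was called lower with the block. Only its control libraries carried Adgre1 past the filter on low counts, which favours a lower value with SPC. The macrophage and monocyte list summed to 1.95 to 2.32 CPM in control and 1.8 to 2.35 CPM with SPC. Of 7 T cell markers, Il9 was called higher with SPC in both fits and Cd5 with the block alone. In the B cell list (3.35 to 3.59 and 3.71 to 4.83 CPM) nearly all counts were of Cd79b. The NK cell list summed to 2.22 to 2.59 CPM in control and 1.43 to 1.83 CPM with SPC. Most of that sum was Eomes (38 to 74 counts, not called in either fit), while Ncr1 had no count and Klrk1 0 to 8. Neutrophil and mast cell lists were at or near 0. Stromal markers stood at 8.14 to 13.5 and 6.86 to 8.60 CPM, most of it Pecam1 (142 to 252 counts), which was called lower with the block. Their part in the results was not tested.

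Downstream of the receptors, 58 of 61 signalling genes were tested (G protein subunits, receptor kinases, arrestins, phosphoinositide 3-kinases, Rac and Rap regulators and Rgs proteins). Without the block 1 was called higher and 1 lower, and with it 6 higher and 3 lower, beside 0.483% and 7.08% of all tested genes called in these fits. The median log2 fold change of the list was 0.00. Rgs1, which shortens signals of inhibitory G proteins and is known to dampen chemokine responses, rose from 49.8 ± 0.50 to 125 ± 16.8 CPM (SD, n = 3), and Pik3cg, the kinase subunit driven by G protein beta-gamma, fell from 119.5 ± 11.5 to 67.9 ± 10.2 CPM (edgeR adjusted p = 0.0021 and 0.0358, with the block 7.73e-06 and 8.4e-05). Without the block, the call of Pik3cg was lost without control library 2 or 3 or SPC library 2 or 3 (adjusted p between 0.0548 and 0.171), and that of Rgs1 without both libraries numbered 2 (0.115). The unblocked call of Pik3cg was also lost without both libraries of any 1 number (edgeR adjusted p between 0.0637 and 0.344).

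The other 7 were called with the block alone. Rgs2 and Rgs16, further regulators of G protein signalling, had log2 fold changes of 0.80 ± 0.28 and 0.31 ± 0.18 (edgeR adjusted p = 0.351 and 0.636, with the block 0.00125 and 0.0174). Adrbk1, which encodes the receptor kinase Grk2, had 0.21 ± 0.07, and Arrb1, beta-arrestin 1, -0.68 ± 0.26 (adjusted p = 0.333 and 0.386, with the block 0.0235 and 0.00108). Both proteins act in receptor desensitization. Pik3cd and Tiam1, a Rac activator, had 0.28 ± 0.10 and 0.28 ± 0.08, and Rap1b, a GTPase of integrin activation, -0.22 ± 0.07 (edgeR adjusted p between 0.226 and 0.362, with the block between 0.00941 and 0.0249). The blocked calls of Rgs16, Pik3cd, Adrbk1 and Rap1b were lost without the libraries numbered 2 (adjusted p = 0.133, 0.103, 0.109 and 0.259). Those of Adrbk1, Tiam1 and Rap1b were lost without the libraries numbered 3 (adjusted p = 0.124, 0.0596 and 0.0509).

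Receptors for other chemoattractants were read for comparison. Of 25 such genes 12 were tested, with a median log2 fold change of -0.01. None was called by edgeR without the block or by DESeq2, and 1 of the 12 (Ptgdr) had an unadjusted p under 0.05, beside 10.2% of all tested genes. With the block 2 were called higher, beside 4.02% of all tested genes. These were Gpr15, a gut-homing receptor, at 2.71 ± 1.01 CPM in control and 4.33 ± 1.20 with SPC, and Cysltr1, a leukotriene receptor, at 19.5 ± 5.72 and 26.3 ± 7.82 CPM (SD, n = 3, edgeR adjusted p = 0.489 and 0.641, with the block 0.0215 and 0.0116). Both blocked calls were lost without the libraries numbered 2 (adjusted p = 0.0811 and 0.0734). Ptgdr, a prostaglandin D2 receptor, and Gpr183, an oxysterol receptor, had 1.5 ± 0.50 and -0.22 ± 0.11 on the log2 scale and were not called in either fit (edgeR adjusted p = 0.317 and 0.542, with the block 0.109 and 0.185). Ptgdr had 10, 7 and 1 counts in control and 20, 13 and 18 with SPC. Only its SPC libraries carried it past the filter on low counts, which favours a higher value with SPC.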

How the data were processed

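The authors deposited raw read counts per gene symbol for each of the 6 libraries; per the submitters' processing notes, TopHat and mm10 were used, and the sources used here give no version, counting program, annotation or strand setting. The members and gene lists were chosen with earlier results of these data known. Counts were tested with edgeR 4.0.16 (R 4.3.3; quasi-likelihood F test, robust dispersions, TMM scaling, filterByExpr with minimum count 10 and minimum total 15, Benjamini-Hochberg adjustment over all 12226 tested genes, calls at adjusted p under 0.05). SEs were taken from the estimate and its F statistic, and CPM from the TMM-scaled totals. The alternative with the library number as a block applies because the deviations of same-numbered libraries from their group means correlated at 0.413, 0.208 and 0.508 across genes and the series text names 3 independent experiments. DESeq2 1.42.0, other scalings and filters, and left-out libraries were further alternatives. On simulated counts of these libraries the test without the block recovered 83.8% of 2-fold changes (99 genes, 12118 tested), with 13 false calls. The simulation held no differences shared by same-numbered libraries and covered all levels of expression. It therefore does not give the share recovered among the ligands with few counts. Groups of 3 cannot give an exact permutation p below 0.10, and for 3 pairs, as in the blocked fit, the limit is higher still. Coordinates and exon lengths are from GENCODE M21 (GRCm38), which matched 61 of the 62 symbols. Every tested member is named; untested ones are named at 10 counts or more, or chosen after their values were seen, as were the neighbours; from the pathway lists, called genes and otherwise the 4 with the smallest p. The values of 1 untested member are not reported here.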

Additional observations from a re-analysis of the deposited data

How the results depend on the processing

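Of 615 values of named genes under the alternatives, 511 kept their direction and their side of the threshold, 69 newly passed it, 16 no longer passed it and 19 changed sign. The sign changes were in uncalled genes. With the replicate block and the libraries of 1 number left out, the log2 fold change was 0.13 for Ccl25 without number 2, -0.25 for Ccl27a without number 2 and 0.13 for Ccl3 without number 1. With libraries left out and no block, it ran from -0.18 to 0.12 for Ccl25, -0.27 to 0.70 for Ccl27a, -0.31 to 0.42 for Ccl3, -0.039 to 0.40 for Ccl4, -0.063 to 0.79 for Cxcr3, -0.77 to 0.057 for Cxcr5 and -0.83 to 0.0025 for Cxcr6. Over all genes, 59 were called, against 866 with the replicate block, 279 by DESeq2, 147 without an expression filter and 0 to 66 with libraries left out, of which the 0 came without both libraries numbered 2. With the replicate block and number 1, 2 or 3 left out, 2112, 699 and 563 were called. Receptors called were 1 in the fit without the block, 5 with the replicate block, 3 by DESeq2, 0 to 1 with libraries left out, and 5, 4 and 4 with the block and number 1, 2 or 3 left out. Ligands called were 0, 6, 3, 0 to 1 (Ccl22 without both libraries numbered 3), and 5, 4 and 6 in the same order, the last with Cxcl2, which the fit of all libraries did not test. Only its SPC libraries carried Cxcl2 past the filter on low counts in that fit, which favours a higher value with SPC. Signalling genes called were 2 without the block, 9 with the replicate block, 0 to 2 with libraries left out, and 18, 7 and 6 with the block and a number left out. Other chemoattractant receptors called were 0, 2 with the replicate block, and 3, 1 and 2 with it and a number left out. The cause of these differences was not tested. Other scalings moved the median log2 fold change of all genes by at most 0.012. Depth limits what can be said of the 42 untested members, and of tested ones with few counts such as Cxcr3, Cxcr5 and Cxcr6.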
